A study of Salmo salar with 20 samples.

Results

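Saponins added to diets with corn gluten (CG), horse bean meal (HBM), rapeseed meal (RSM) or sunflower meal (SFM) left the distal intestinal transcriptome of Atlantic salmon close to that of controls on the matching saponin-free diet, in the direction in which the ratios were deposited. These 16 arrays, 4 fish on each of 4 diets, were chosen by the diet in their titles out of the 20 arrays of the series. The other 4 arrays, of fish fed pea protein concentrate with saponins (PPC + S), serve here as the comparison. Each array set the RNA of 1 post-smolt salmon, fed for 80 days with a soyasaponin extract in the diet (named SFM + S, RSM + S, HBM + S and CG + S after the protein), against a pool of RNA from 12 fish on the same plant protein without saponins. The fish were of 1 breed, and their sex and age are not given in the sources used here. The pool is 1 control sample per diet, so that the spread between control fish is left out of every test. The 4 fish of a diet came from 2 tanks, which the labels do not assign, and every p treats the fish as independent and can be too small. The question is which genes responded to saponins whatever the protein source, that is, without pea protein.

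Soyasaponins are amphiphilic glycosides of legume seeds, built from a triterpene skeleton with sugar chains, and they can bind sterols in membranes. The distal intestine of salmonids takes up macromolecules by endocytosis, and it is the segment that becomes inflamed when salmon are fed soybean meal. Known features of that condition are shortened mucosal folds, loss of the vacuoles above the nucleus of the enterocytes and an influx of leukocytes. In bulk tissue, fewer cells of a type and less RNA per cell cannot be told apart.

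The values are log2 ratios of fish over pool, normalized by the authors, with the 2 spots of each probe averaged. Of 21322 probes, 17961 had a value in at least 3 of 4 fish in each of the 4 diets and were tested. In single channels 55.5% to 79.4% of the probe spots were well above background. The methods give Cy5 for every fish, but 8 of the 16 columns (fish 1 and 3 of each diet) ran against the red over green ratio of their best-matching array and 8 ran with it, and for 6 of the 16 the fish number of column and array was the same. Over all probes, 57 of 64 pairs of columns of opposite orientation correlated below 0, down to -0.36, and 56 of 56 pairs of the same orientation above 0, up to 0.60. In PPC + S, where fish 1 and 3 also ran against, the 4 pairs of opposite orientation correlated at 0.47 to 0.54 as deposited. With the dyes as stated these correlations would be below 0. Arginase-2, as 1 gene, was at 3.19, 4.37, 3.41 and 4.23 in the 4 PPC + S fish as deposited. Direction is given here as the authors' values have it. The stated dyes differ from it, and in PPC + S they would set fish of 1 diet against each other. Results with the 8 columns turned to the dyes as stated are given beside some of the counts. The other counts, and the values and tests of single probes, were not repeated that way and can change too. Each diet held 2 columns of each orientation, so that turning them makes a diet mean a contrast between the orientations as deposited. If the deposited direction holds, counts with the dyes as stated are counts of the orientation effect. Orientation itself, as a covariate, was past the limit for 37.3% of the probes, with a median effect of 0.077 on the log2 scale. Effects of orientation are given as the distance of either orientation from the midpoint of the 2, and the full difference between them is larger.

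Across the 4 diets 6 probes of 17961 (0.0334%) changed in the mean of the diet means, with limma and a Benjamini-Hochberg adjusted p under 0.05. Of these 5 fell and 1 rose, and 2 (0.0111%) changed by more than 1.6-fold. With the 8 columns turned to the dyes as stated, 6524 probes passed, 3505 above and 3019 below 0, of which 19 were past 1.6-fold. In the deposited direction that mean is the contrast between orientations, which as a covariate passed for 37.3% of the probes. As deposited, the count of shared changes was 3 to 10 when 1 fish was left out. It was 3 without each of HBM + S replicates 1, 2 and 3, RSM + S replicates 1 and 2 and SFM + S replicates 2 and 4, and 10 without CG + S replicate 1. Without adjustment 1447 probes (8.06%) had p under 0.05, of which 895 lay above 0 and 552 below. With array orientation as a covariate 10 probes (0.0557%) passed, 5 in each direction, and these included all 6. On the 4 diet means alone, which counts a diet as the unit of replication, 0 probes passed with limma and 1391 had an unadjusted p under 0.05.

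For most probes the interval of the mean over the 4 diets was nonetheless narrow. The median absolute change was 0.033 on the log2 scale, and 99% of the probes lay within 0.33. The 95% interval of a probe reached a median of 0.10 to either side of its mean, and for 17781 probes it lay wholly within 1.6-fold in either direction. It reached past 1.6-fold for 180 probes. These intervals, like all given here, hold the spread of fish over their pool. They leave out error shared by the fish of a diet through pool, slide or tank, and can be too narrow. The diets did not resemble each other closely: across probes, which are not independent replicates, Pearson's r between diet means ranged from -0.058 (CG + S and RSM + S) to 0.25 (HBM + S and SFM + S). The mean had the same sign in all 4 diets for 2888 probes (16.1%), 1847 above 0 and 1041 below.

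The largest fall past the limits with the same sign in all 4 diets was that of Ssa#EG781271, a probe to which the files give no gene name. Its log2 ratios were 0.24, 0.50, -0.81 and -0.62 in the 4 CG + S fish and -0.16, -0.98, -0.66 and -0.90 in HBM + S. In RSM + S they were -1.81, -1.08, -1.10 and -0.54, and in SFM + S -1.25, -0.71, -0.52 and -1.03. It was below 0 in 14 of 16 fish, and both exceptions were CG + S fish. The mean fell by 0.71 ± 0.11 (SE, n = 16, 1.64-fold, limma adjusted p = 0.0435). It was also the 1 called probe past the limits in PPC + S, where the 4 fish were at -1.32, -1.27, -1.14 and -1.35 (adjusted p = 0.00904), and the difference between PPC + S and the 4 diets was -0.55 (adjusted p = 0.107). It lost the call, with adjusted p up to 0.143, in 13 of 16 fits that left out 1 fish, and kept it without CG + S replicates 1 and 2 and RSM + S replicate 4. It also lost the call in 3 of 4 fits without a diet, with adjusted p up to 0.399, and kept it without CG + S.

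Ssa#DY716550, the next largest fall, came from 2 of the diets. Its ratios were -0.63, -0.26, -0.56 and -0.69 in CG + S and -1.05, -1.32, -1.17 and -1.29 in SFM + S. In HBM + S they were -0.18, 0.027, 0.045 and -0.17, and in RSM + S 0.073, -0.24, -0.017 and -0.20. All CG + S and SFM + S fish lay below all HBM + S and RSM + S fish. The mean over the diets fell by 0.48 ± 0.038 (SE, n = 16, adjusted p = 3.29e-05), but without SFM + S it was -0.23 with an adjusted p of 0.326. In PPC + S the ratios were 0.27, 0.015, 0.32 and 0.42, a difference of 0.73 from the 4 diets (adjusted p = 3.75e-05).

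The called probe with the lowest p was low in the same 2 diets and near 0 in the other 2. It fell by 0.86 in the mean of the diets (SE 0.039, n = 16, 1.81-fold, limma adjusted p = 4.08e-08). The CG + S fish were at -1.85, -1.76, -1.95 and -1.83 and the SFM + S fish at -1.54, -1.31, -1.82 and -1.39. The HBM + S fish were at 0.12, 0.053, -0.26 and 0.15 and the RSM + S fish between -0.19 and -0.0032. The means of HBM + S and RSM + S were 0.017 (SD 0.19) and -0.079 (SD 0.079). The PPC + S fish were on both sides of 0, from -0.65 to 0.29.

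For 2 called probes the mean change was small and all 16 fish lay below 0, some of them close to it. In one, the 16 fish ranged from -0.55 to -0.022 with a median of -0.38, and the diet means were -0.24 (CG + S), -0.34 (SFM + S), -0.43 (HBM + S) and -0.33 (RSM + S). Its mean fell by 0.33 ± 0.043 (SE, n = 16, adjusted p = 0.0113), and it remained past the limit whichever fish was left out, though in only 1 of 4 fits without a diet. The PPC + S mean of the same probe was -0.26, a difference of 0.076 from the 4 diets (adjusted p = 0.66). In the other, the 16 fish ranged from -0.95 to -0.0060, the mean fell by 0.37 ± 0.054 (adjusted p = 0.0316), and PPC + S was at 0.12 (adjusted p of the difference 0.0129). Its call was lost in 10 of 16 fits without 1 fish and in 4 of 4 without a diet, with adjusted p up to 0.220. These are the 2 called probes with the same sign in 16 of 16 fish.

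Ssa#DY707521 was the 1 probe that rose. Its ratios were 0.23, -0.052, 0.15 and 0.14 in CG + S and 0.20, 0.29, 0.18 and 0.29 in HBM + S. In RSM + S they were -0.0075, -0.019, 0.11 and 0.069, and in SFM + S 0.24, 0.24, 0.16 and 0.37. Of the 16 fish 13 were above 0. The mean was 0.16 ± 0.025 (SE, n = 16, 1.12-fold, adjusted p = 0.0435), and the PPC + S mean was -0.088, lower by 0.25 (adjusted p = 0.00723). The call was lost in 15 of 16 fits without 1 fish, the exception being CG + S replicate 2. It was also lost in 4 of 4 fits without a diet, with limma adjusted p from 0.0646 to 0.488. Between PPC + S and the mean of the 4 diets 17.9% of the probes differed, and 4 of the 6 called probes did. These 6 had been chosen on the 16 fish that enter this difference, which favours it, so its p values for them are no independent support.

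**Figure D1:**
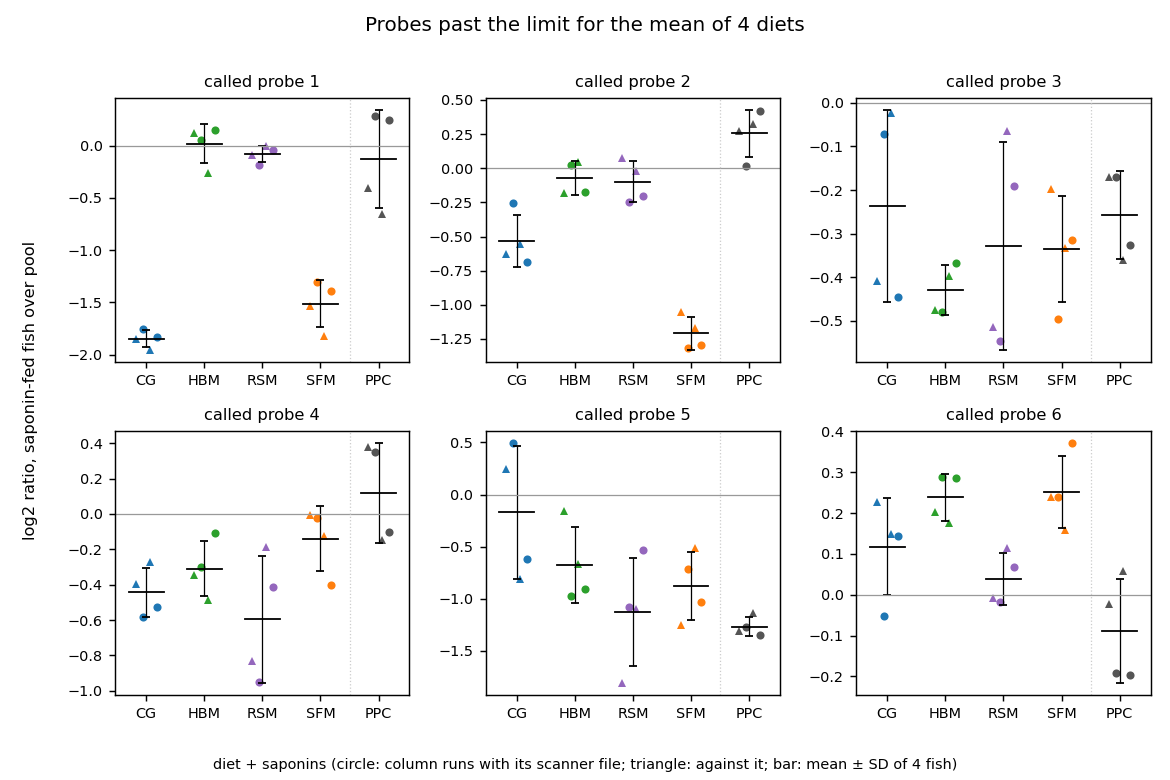
Log2 ratio of saponin-fed fish over pool (vertical axes, scaled by panel) of the 6 called probes, ordered by p, for 4 fish of each diet with the mean and SD. Symbols give the orientation of the column. In called probes 1 and 2 all CG and SFM fish lie below all HBM and RSM fish, narrowly in probe 2, where an RSM fish is at -0.24. Probe 2 is Ssa#DY716550, probe 5 is Ssa#EG781271 and probe 6 is Ssa#DY707521.

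The 4 diets differed from each other in 2 probes of 17961 (0.0111%, moderated F test of limma, adjusted p under 0.05), against 873 without adjustment. Both were probes already described: Ssa#DY716550 (adjusted p = 0.000748) and the called probe with the lowest p (adjusted p = 8.77e-07). With orientation as a covariate 3 probes passed. The third had ratios of 0.78, 0.30, 0.76 and -0.12 in CG + S and was below 0 in all 12 fish of the other diets (adjusted p = 0.0312, and 0.894 without the covariate). The 4 probes that passed for the shared change only with the covariate all had means above 0, from 0.15 to 0.35. The one with the lowest p among them in that fit was above 0 in 15 of 16 fish, at a mean of 0.33. Its SE was 0.039 with the covariate and 0.058 without. Its effect of orientation, from the midpoint to the columns of fish 2 and 4, was -0.16 (limma adjusted p = 0.00474). In PPC + S it was at -0.18, -1.20, -0.36 and -2.10, where fish 2 and 4 were also the lower ones.

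A larger set of probes to read in the 16 fish is given by PPC + S, whose arrays and pool are separate from theirs. In PPC + S 653 probes (3.44%) passed an adjusted p of 0.05 and 1.6-fold, and 7.8% passed the adjusted p alone. Of these 651 were tested in the 16 fish, 315 that rose and 336 that fell in PPC + S, with median changes of 0.88 and -1.04. The medians of the same probes over the 16 fish were 0.022 and -0.057, against 0.0053 over all probes tested. The 16 fish intervals lay within 1.6-fold for 306 of the 315 and 305 of the 336. Only 1 of the 651, Ssa#EG781271, was past the limit in the 16 fish, where 0.0334% of all probes were. The difference from PPC + S passed for 298 of the probes that rose and 298 of those that fell, though these had been chosen for their size in PPC + S.

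Most of the probes that fell in PPC + S had means slightly below 0 in the other diets. Of the 336 probes 232 (69.0%) had a mean below 0, against 45.5% of all probes. In all 4 diet means 58 (17.3%) were below 0, against 5.80% of all probes, and 51 (15.2%) were below 0 with an unadjusted p under 0.05, against 3.07%. The medians by diet were -0.029 (CG + S), -0.030 (SFM + S), -0.11 (HBM + S) and -0.025 (RSM + S). By fish they ranged from -0.28 to 0.18 and were below 0 in 12 of 16 fish. For the 315 probes that rose, 199 (63.2%) had a mean above 0, against 54.5% of all probes. In all 4 diet means 31 (9.84%) were above 0, against 10.3% of all probes, and the count was 47 without CG + S replicate 3 and 55 without CG + S replicate 4. With the dyes as stated the medians had the other sign, -0.046 for the probes that rose and 0.055 for those that fell, and 34 and 28 probes were on the same side in all 4 diets. These are descriptions, with no test of the lists. The shares of all probes are not matched to these probes in spread between fish. Among the 180 probes with the widest spread 86.1% had a log2 mean below 0. With their ratios averaged before taking the log it was 45.0%. How far this scale enters the shares given here was not tested.

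**Figure D2:**
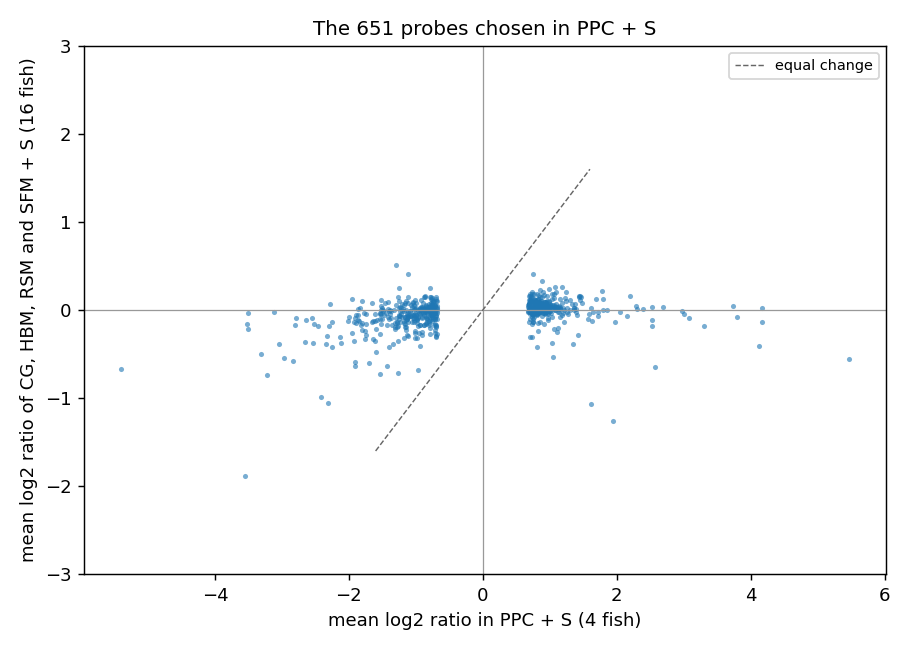
Mean log2 ratio of the 651 probes chosen in PPC + S (horizontal axis, 4 fish) against their mean in the other 4 diets (vertical axis, 16 fish), with a dashed line where both would be equal. Most points lie near the horizontal line at 0, with medians of 0.022 and -0.057 on the vertical axis. Some lie well off it, such as a probe at -3.55 in PPC + S and -1.88 in the 16 fish. Another was at 1.95 in PPC + S and at -1.26 in the 16 fish. Neither passed the adjusted limit in the 16 fish.

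The functional groups listed for PPC + S were read in the same way. Probes in the files have no gene names, so the list entries were tied to probes by their listed fold change and SE in the PPC + S columns. Of 256 entries 236 met 1 probe, 17 met 2 and 3 met none, and 232 entered here, 78 listed as up and 154 as down. The names of these genes therefore rest on a match of values, and of 4 primer-list genes with a known accession number, the match met that probe for 2 (arginase-2 and the fatty acyl-CoA hydrolase) and other probes for 2 (MHC class I and the sulfate transporter). Genes are named below only where no other probe lay within 0.02 of the match in fold and SE, which held for 153. The lists were chosen on PPC + S fish and not on the 16. Of the 232 members 0 passed the limit in the 16 fish with limma, with or without orientation as a covariate. Over all probes 0.0334% passed, and 0.0557% with the covariate, so that a count of 0 does not set the members apart. Without adjustment 35 had p under 0.05, 6.41% of those listed as up and 19.5% of those listed as down, against 8.06% of all probes.

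Of the genes of inflammation and defence none passed the limit in the 4 diets, where 0.0334% of all probes did. Over all probes 54.5% had a mean above 0. Of 22 members listed as up among inflammatory mediators and transducers, 8 lay above and 14 below 0, with a median of -0.013 against 1.19 in PPC + S, and all 22 intervals lay within 1.6-fold. Interleukin-22, a cytokine that acts on epithelial cells, was at 3.00 ± 1.28 in PPC + S (SD, n = 4) and at -0.043 ± 0.038 in the 16 fish (SE), where single fish ranged from -0.27 to 0.28 and none of the 16 reached the lowest PPC + S fish, at 1.43. Of 12 effectors listed as up (complement, lectins and antimicrobial proteins) 3 lay above 0, with a median of -0.042. For FBPL4, a lectin, the CG + S fish were at -1.73, -2.15, -1.49 and -0.95 and the HBM + S fish at -2.84, -1.99, -1.63 and -1.33, while RSM + S had a mean of 0.71 and SFM + S of 0.23. The difference between the diets did not pass (limma adjusted p = 0.588), nor did the mean of -0.65 (SE 0.20, adjusted p = 0.377). With ratios averaged before taking the log, the mean of FBPL4 was 0.011. In PPC + S this lectin was at 2.57.

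Of 11 proteases, inhibitors and T-cell genes listed as up, 6 lay above 0, with a median of 0.019. The E3 ubiquitin ligase LINCR was the most precise example, at 4.17 ± 0.22 in PPC + S (SD, n = 4) and at 0.023 ± 0.021 in the 16 fish (SE), with single fish between -0.064 and 0.13. Gelsolin, an actin-severing protein of the exocytosis group, was at 2.98 in PPC + S and at -0.0047 in the 16 fish (SE 0.091). Myosin IB, a motor protein that links membranes to actin, was at 3.74 and 0.041 (SE 0.082), and ubiquitin, of the stress group, at 3.30 and -0.19 (SE 0.23). Of 4 stress genes 1 lay above 0. The kinase Jak1, which carries cytokine signals, was at 1.06 in PPC + S and 0.018 in the 16 fish (SE 0.080), and the peptide guanylin, which regulates salt and water secretion, at 1.19 and 0.27 (SE 0.13).

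Of 154 members listed as down, mainly genes of absorption, metabolism and protection, 103 (66.9%) were below 0, against 45.5% of all probes. Of the 78 listed as up 32 (41.0%) were above 0, against 54.5% of all probes. With the dyes as stated these shares were 48.7% and 48.7%, against 50.01% of all probes below 0 and 49.99% above. The shares of the lists were not tested, and the shares of all probes are not matched to the lists in spread between fish. In the 4 diet means all values were below 0 for 28 of the 154 (18.2%), against 5.80% of all probes. With an unadjusted p under 0.05, 26 (16.9%) were below 0 and 4 above, against 3.07% of all probes below. Of the 78 listed as up, 1 (1.28%) was above 0 with such a p, against 4.98% of all probes, and 4 were below. In all 4 diet means 3 of the 78 (3.85%) were above 0, against 10.3% of all probes.

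Over all probes 45.5% had a mean below 0, and 3.07% were below 0 with an unadjusted p under 0.05. By group, 26 of 38 members of lipid and steroid metabolism listed as down lay below 0, with a median of -0.091. Of the 38, 8 had an unadjusted p under 0.05, all below 0. Of 14 members of the oxidative burst and protection group 12 lay below 0 (median -0.11), and of 17 transporters 10 (median -0.060, 6 with an unadjusted p under 0.05 below 0 and 1 above). Of 21 members of amino acid metabolism 15 lay below 0 (median -0.070), of 18 of xenobiotic metabolism 11 (median -0.064), of 13 of adhesion and glycans 9 (median -0.028) and of 9 IFN-dependent genes 7 (median -0.071). An unadjusted p under 0.05 was met by 3 members of amino acid metabolism, 2 of the oxidative group and 2 of xenobiotic metabolism. It was also met by 1 of adhesion and glycans and 1 IFN-dependent gene, and all of these were below 0. Of 15 proteases 9 lay below 0 (median -0.017), but the 2 with such a p lay above 0. Of 6 growth factors and regulators 4 lay above 0 (median 0.021), and 2 had such a p below 0 and 1 above. The median of every group with at least 4 members was within 0.12 of 0, while in PPC + S the medians ranged from -1.75 to 1.78.

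**Figure D3:**
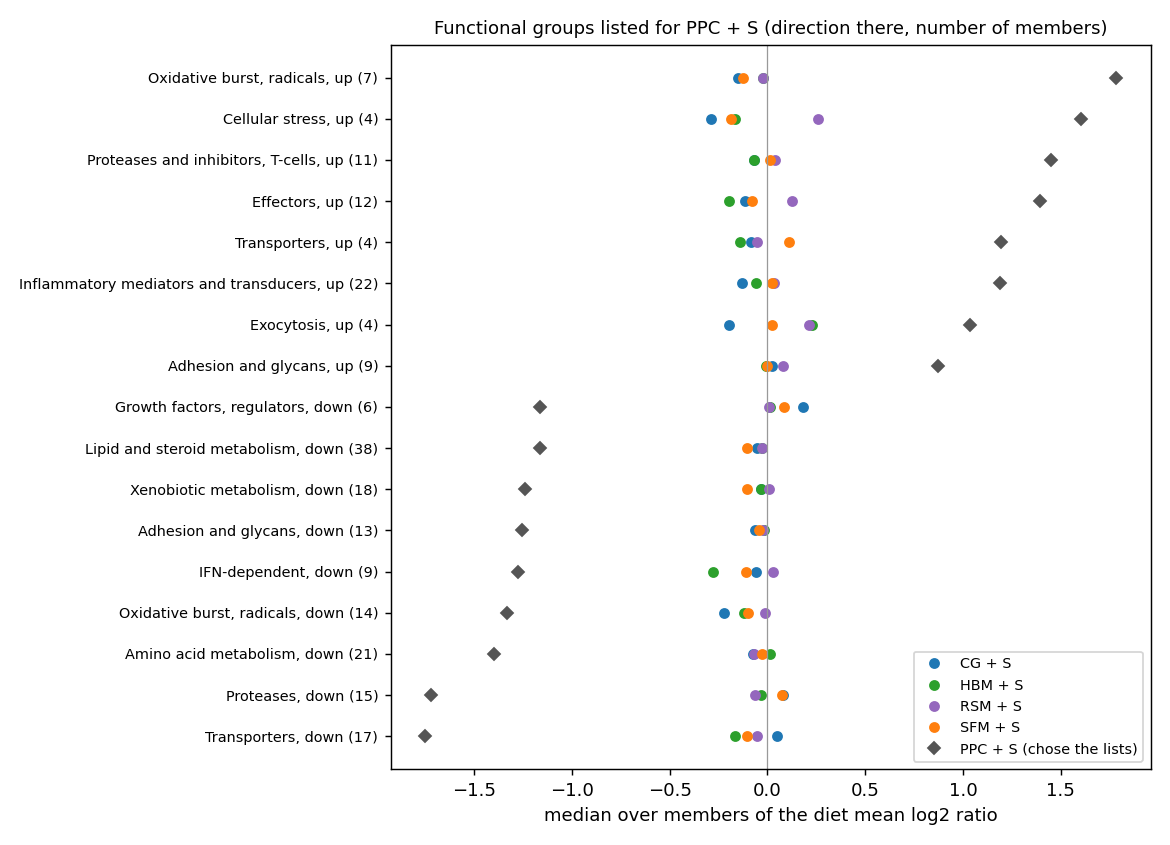
Median over members of the diet mean log2 ratio (horizontal axis) for each functional group with at least 4 members listed in 1 direction for PPC + S, with the number of members in brackets. Circles are the 4 diets and diamonds PPC + S, whose fish chose the lists. The circles lie between -0.29 and 0.26, apart from every diamond.

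Of the named members 7 had an unadjusted p under 0.005 in the 16 fish, and all 7 were listed as down. They are 3.02% of the 232 members and were singled out after their values were seen. Among all probes tested 235 (1.31%) had such a p. Adjusted over all probes tested none passed in the fit with a mean per diet, the lowest being 0.129, or in that with orientation as a covariate, the lowest being 0.0712.

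Monocarboxylate transporter 9 had the lowest p of these. Its ratios were -0.99, -1.05, -0.39 and -0.26 in CG + S and -0.20, -0.79, -0.14 and -0.66 in HBM + S. In RSM + S they were -0.70, -0.997, -0.40 and 0.025, and in SFM + S -0.28, -0.83, 0.21 and -0.25. It was below 0 in 14 of 16 fish, with a mean of -0.48 ± 0.093 (SE, adjusted p = 0.129), against -1.59 in PPC + S.

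Apolipoproteins carry the lipid that enterocytes export in lipoproteins. Apolipoprotein B, the structural protein of these particles, had ratios of -1.65, -0.15, -0.68 and -0.97 in CG + S and of -1.35, -0.39, -0.56 and -0.0045 in HBM + S. In RSM + S the ratios were -1.598, -1.11, 0.32 and 0.75, and in SFM + S -1.76, -0.75, -1.31 and -0.37. Fish 1 was the lowest of its diet in all 4 diets. The fish 1 columns all ran against their best-matching arrays, which bore another fish number, and no pairing by number is stated. The effect of orientation, from the midpoint to the columns of fish 2 and 4, was 0.35 (limma adjusted p = 0.0906). The mean was -0.72 ± 0.18 (SE, adjusted p = 0.255). The PPC + S fish lay between -1.59 and -1.45, and the difference of their mean from the 4 diets was -0.81 (adjusted p = 0.136).

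Apolipoprotein A-II is a smaller protein of high-density lipoprotein. Its ratios were -2.31, -0.36, -1.41 and 0.37 in CG + S and -1.45, -0.61, -1.30 and -0.10 in HBM + S. In RSM + S they were -1.92, -1.07, 0.65 and 0.83, and in SFM + S -2.58, -2.24, -1.17 and -1.10. Fish 1 was again the lowest in each diet, and the 3 fish above 0 were of CG + S and RSM + S. For this gene the effect of orientation, given in the same way, was 0.45 (limma adjusted p = 0.102). The mean was -0.98 ± 0.23 (SE, 1.98-fold, adjusted p = 0.240), and the PPC + S mean was -2.42. Apolipoprotein A-I, the main protein of the same lipoprotein, had 2 entries, with means of -0.21 (SE 0.092) and -0.23 (SE 0.071) in the 16 fish, where 12 and 13 of 16 fish were below 0. Fatty acid-binding protein of the intestinal type, a carrier of fatty acids in enterocytes, was at -0.094 (SE 0.099) in the 16 fish and at -2.55 in PPC + S.

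The peptide transporter solute carrier family 15 member 1, which takes up dipeptides and tripeptides at the brush border, had diet means of -0.88 (CG + S), -0.86 (SFM + S), -0.64 (HBM + S) and 0.041 (RSM + S). Single fish ranged from -2.05 to 0.50 with a median of -0.47, and 13 of 16 were below 0. The mean was -0.58 ± 0.16 (SE, adjusted p = 0.337). Heme oxygenase, which breaks down heme, had diet means of -0.61, -0.48, -0.043 and -0.35 in the same order, and a mean of -0.37 ± 0.080 (SE, adjusted p = 0.185), against -2.53 in PPC + S. All CG + S and SFM + S fish were below 0, while 3 of 4 HBM + S fish were above.

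Cytochrome P450 26A1, which degrades retinoic acid, had diet means between -0.45 and -0.29 and was below 0 in 14 of 16 fish (mean -0.38 ± 0.090, SE; adjusted p = 0.240). The 25-hydroxycholesterol 7-alpha-hydroxylase, an enzyme of oxysterol and bile acid synthesis, had diet means between -0.47 and -0.32 and a mean of -0.41 ± 0.10 (SE, adjusted p = 0.267). Its PPC + S mean was -0.94, and the difference from the 4 diets had an adjusted p of 0.0935. Of the 7 genes, these 2 enzymes and monocarboxylate transporter 9 had the narrowest ranges of diet means.

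**Figure D4:**
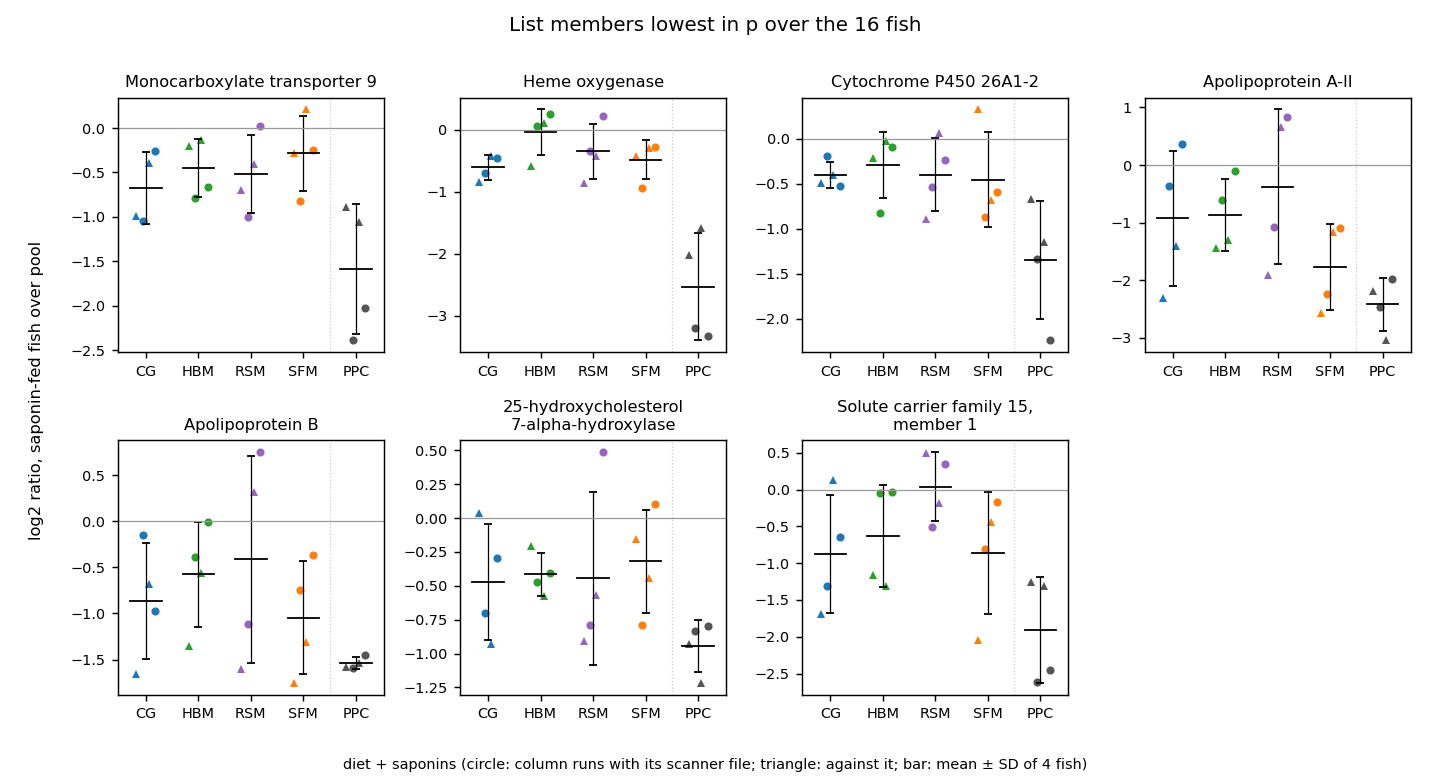
Log2 ratio of saponin-fed fish over pool (vertical axes, scaled by panel) of the 7 list members with an unadjusted p under 0.005 in the 16 fish, for 4 fish of each diet with the mean and SD. Symbols give the orientation of the column. Between 12 and 14 of the 16 fish lie below 0 in each panel, and none of the 7 passed after adjustment in the fit with a mean per diet.

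Other members that stood out in PPC + S were near 0 in the 4 diets or varied widely between fish. Cysteine dioxygenase type 1, which starts the breakdown of cysteine towards taurine, was at -5.41 in PPC + S and at -0.67 ± 0.30 in the 16 fish (SE, adjusted p = 0.601), where 1 HBM + S fish was at -4.30 and the highest fish at 0.85. Aquaporin-8, a water channel, was at -3.51 and -0.15 (SE 0.064, 12 of 16 fish below 0, adjusted p = 0.567). Metallothionein A, which binds zinc and copper, was at -2.64 and -0.11 (SE 0.11), and metalloproteinase inhibitor 3 at -3.11 and -0.017 (SE 0.15). The IFN-dependent very large inducible GTPase was at -2.31 in PPC + S, and in the 16 fish at -1.06 ± 0.35 (SE, adjusted p = 0.414) with single fish from -3.13 to 1.21. Cytochrome P450 2M1 was at -2.34 and -0.38 (SE 0.30), C1 inhibitor, which restrains complement, at -2.24 and -0.42 (SE 0.18), and chloride channel protein 3 at 1.37 and -0.41 (SE 0.20). The lysosomal alpha-mannosidase 2B1 was at -2.37 and 0.074 (SE 0.11).

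Of the genes of the primer list 4 were found by accession number, which does not rest on the match of values. Arginase-2, which converts arginine to ornithine, was at 3.19, 4.37, 3.41 and 4.23 in PPC + S. In the 16 fish it ranged from -0.40 to 0.39 with a mean of -0.077 ± 0.043 (SE, adjusted p = 0.739), and the 95% interval ran from -0.17 to 0.015, short of 1.6-fold in both directions. The medium chain fatty acyl-CoA hydrolase, which releases fatty acids from coenzyme A, ranged from -0.80 to 0.65 (mean -0.13 ± 0.084, SE; adjusted p = 0.820), against -2.01 in PPC + S. The probe of the sulfate transporter had diet means of 0.20 (CG + S), 0.077 (SFM + S), -0.29 (HBM + S) and -0.30 (RSM + S) and a mean of -0.078 ± 0.071 (SE, adjusted p = 0.898), against -2.07 in PPC + S. The difference between PPC + S and the 4 diets passed for these 3 genes (limma adjusted p = 9.64e-11, 3.17e-05 and 0.000405). The primer list was drawn up to represent classes of genes affected in PPC + S, so this difference was favoured by the choice.

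MHC class I, which presents peptides to cytotoxic T cells, varied widely. The CG + S fish were at -0.48, -1.05, 0.25 and -1.85, the HBM + S fish at 0.55, -0.85, 1.18 and -3.04. The RSM + S fish were at 1.35, 0.055, 0.32 and -0.54 and the SFM + S fish at 0.93, -2.25, 0.81 and -0.21. In every diet fish 2 and 4 were both lower than fish 1 and 3, whose columns run the other way. The effect of orientation, from the midpoint to the columns of fish 2 and 4, was -0.92 (limma adjusted p = 0.00236). The mean was -0.30 ± 0.30 (SE, adjusted p = 0.914) and the interval ran from -0.95 to 0.35, so that a fall of 1.6-fold lay within it and a rise of that size did not. With orientation as a covariate the SE was 0.19. The PPC + S fish were at -0.53, -5.02, -2.17 and -3.004.

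Diet means past 1.6-fold were counted without a test. There were 58 below and 9 above in CG + S, 96 and 26 in HBM + S, 122 and 16 in RSM + S and 67 and 22 in SFM + S, in 290 probes in all. In 2 or more diets 83 probes were lower by more than 1.6-fold and 1 was higher. With the dyes as stated the counts below and above were 26 and 27 in CG + S, 126 and 164 in HBM + S, 42 and 45 in RSM + S and 46 and 57 in SFM + S, and in 2 or more diets 27 probes were lower and 45 higher. In 3 diets 15 probes were lower and in all 4 diets 2 were, and of these 17 none passed, with adjusted p from 0.240 (apolipoprotein A-II) to 0.821. The counts depended on the scale on which the fish were averaged. With ratios averaged before taking the log, 40 probes were lower and 20 higher in 2 or more diets. The sign of some named means depended on it too. Averaged that way over the 16 fish, cytochrome P450 2M1 was at 0.25, ubiquitin at 0.18 and MHC class I at 0.12. Apolipoprotein A-II stayed below 0, at -0.62. Among the 180 probes with the widest spread between fish of a diet, 86.1% had a log2 mean below 0, against 45.5% of all probes, and 45.0% when averaged on the linear scale. In 97 probes at least 2 fish were above 1 and at least 2 below -1.

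Among the 84 probes past 1.6-fold the same way in 2 or more diets, 16 shared 1 profile over the fish, with correlations between them of at least 0.94. Their median by fish was 1.42, 0.15, 0.25 and -0.12 in CG + S and -0.91, 0.021, -0.96 and -1.22 in HBM + S. In RSM + S it was -1.29, -1.21, -0.42 and -0.47, and in SFM + S -0.16, 0.53, -0.52 and -0.96. All RSM + S fish were below 0, as were 3 of 4 fish in HBM + S and in SFM + S and 1 of 4 in CG + S. The probes were picked for diet means past 1.6-fold in these same fish. Low values in 2 or more diets, and low unadjusted p between diets, are thus favoured by the choice. In PPC + S the medians were 0.32, 0.068, -0.28 and 0.33. Of these probes 0 passed the limit for the shared change, and 0 that for a difference between the diets (limma, lowest adjusted p = 0.894, with unadjusted p of 0.0110 to 0.0283). Over all probes 71 followed the same profile with r over 0.9. The 16 probes carry no gene names here, and 3 of them have rainbow trout identifiers.

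**Figure D5:**
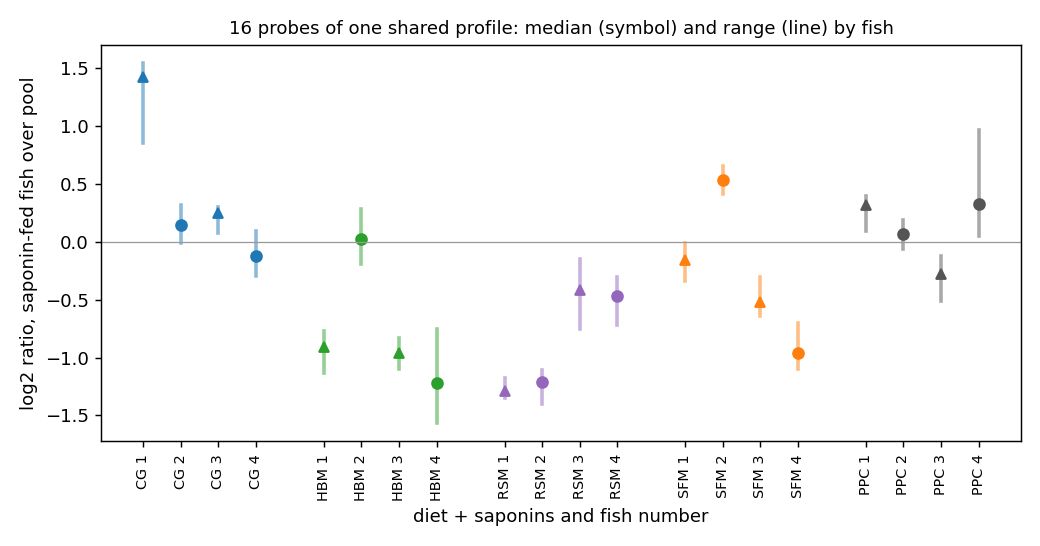
Log2 ratio of saponin-fed fish over pool (vertical axis) of 16 probes of one profile, as the median and range over the probes, for each fish of each diet (horizontal axis). Symbols give the orientation of the column. The median ranges from -1.29 in an RSM + S fish to 1.42 in a CG + S fish.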

How the data were processed

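RNA of the distal intestine was measured on 2-colour Agilent arrays, 4 fish per diet, each against a pool of its own diet. The authors deposited Lowess-normalized log2 ratios per spot. They also deposited median intensity values for spot and local background and log10 ratios of the scanner software (Feature Extraction 10.7.1.1 per the file headers, 9.6.1 per the submitters' processing notes). The methods name another scanner program, so the extraction behind the log2 ratios is not known. All 20 columns were mapped to samples. Of the probe spots 13.1% were empty in the 16 columns.

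Values of the 2 spots of each probe were averaged first. A probe measured in at least 3 of 4 fish in each of 4 diets was fitted with a mean per diet in limma 3.58.1 (R 4.3.3). The mean of the 4 diet means was tested against 0, the diets against each other by a moderated F, PPC + S alone against 0, and PPC + S against the 4 diets in all 20 arrays. The limit was a Benjamini-Hochberg adjusted p of 0.05, with 1.6-fold where stated. No difference was tested beyond these. The fits were tested on simulated data. The number of arrays limits the precision, and the arrays of a diet shared a slide, so that slide, pool and diet cannot be told apart.

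Scanner columns were matched to the authors' columns over 30653 spots. Re-normalized (normexp with an offset of 50, loess within arrays, spots with outlier flags or over 50 units below background left out, chosen after the files were seen), they correlated with them at 0.91 to 0.99 once turned. Alternatives concerned orientation, fish number, test, values, direction, centring, filters and each fish or diet left out.

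The members and lists were chosen with earlier results of these data known. Named were the largest falls and rises past the limit with the same sign in 4 diets (at most 2 identifiers each way, as the probes have no gene names), primer-list genes found by accession, the list member with the largest PPC + S change in each functional group and direction, and list members with an unadjusted p under 0.005. The last 2 were added after the values were seen. List entries were tied to probes once, by the listed fold change and SE within 0.0051 of those of the PPC + S columns, and only the resulting map was kept. The lists had been meant for use as sets only, so that naming their members departs from that plan. Marker genes of cell types and genome positions were not analysed here, as they need gene names. Figures were drawn with matplotlib 3.10.9 in Python 3.11.15.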

Additional observations from a re-analysis of the deposited data

Results flagged for a closer look

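In 92 groups of 4 fish examined, 2 had 1 fish far from the other 3, where chance gives about 1 in 20. Arginase-2 in SFM + S had 1 fish at 0.17 with the nearest at -0.13, a gap of 0.911 of the range. The sulfate transporter in RSM + S had 1 fish at -0.67 with the nearest at -0.21, a gap of 0.875 of the range.

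The 4 diets differed in the called probe with the lowest p (limma's F, adjusted p = 8.77e-07) and in Ssa#DY716550 (adjusted p = 0.000748), both lower in CG + S and SFM + S.

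PPC + S differed from the mean of the 4 diets in the called probe with the lowest p (0.73 higher on the log2 scale), in Ssa#DY716550 (0.73 higher), in Ssa#DY707521 (difference of -0.25) and in the called probe that was below 0 in all 16 fish with the wider range (0.49 higher). The probe with the lowest p among those that passed only with orientation as a covariate differed by -1.29. Of the primer-list genes, arginase-2 differed by 3.88, MHC class I by -2.38 (limma adjusted p = 0.0371), the sulfate transporter by -1.99 and the fatty acyl-CoA hydrolase by -1.88. All these differences were favoured by the choice of probes. Those called, with or without the covariate, had been chosen on the 16 fish, and the primer list on classes of genes affected in PPC + S.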

How the results depend on the processing

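The shared change was called for 6 probes as reported. It was called for 10 with orientation as a covariate, 0 on the 4 diet means and 17 with diet as a random block. In that block fit the correlation within diets was -0.065, and a value below 0 lowers the SE of the mean. That fit thus makes no allowance for error shared by the fish of a diet. The methods' t-test was run here on all 16 fish together, and not on the 4 fish of each diet as in the methods. It called 1 probe with Benjamini-Hochberg adjustment (1340 without it, 20 of them over 1.6-fold). The count was 13 with the scanner software's own log ratios and 10 with 1 fish per diet as the filter. It was 3 among probes well above background on 12 arrays and 0 with a mean-variance trend. With the dyes as stated in the methods 6524 probes were called, 19 of them over 1.6-fold. In the deposited direction this is a count of the orientation effect. As deposited, the shared change was called for 3 to 10 probes without 1 fish, 10 of them without CG + S replicate 1. It was called for 3 without each of HBM + S replicates 1, 2 and 3, RSM + S replicates 1 and 2 and SFM + S replicates 2 and 4. Without 1 diet it was called for 1 to 6 (2 without HBM + S, 2 without RSM + S and 1 without SFM + S). The cause of these shifts was not tested. Past 1.6-fold, the count of 2 became 1 with scanner values after normexp and loess and 1 with median centring, and lay between 1 and 4 without 1 fish (1 in 13 of the 16 fits, 4 without CG + S replicate 2). The diet difference went from 2 to 4 probes with the same scanner values and lay between 2 and 3 without 1 fish.

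No pairing of fish by number is stated. Deviations of same-numbered fish correlated at 0.050 to 0.61 in 24 pairs of fish of different diets, over 0.1 in 22. Of 16 fish 9 correlated best with a fish of their own number. Same-numbered fish had columns of the same orientation in every diet, which favours correlations above 0. These values therefore cannot show a pairing by number, and a block by number also takes up the effect of orientation. With the number as a replicate block 13 probes were called for the shared change, 2 past 1.6-fold and 2 for the diet difference. Among them were monocarboxylate transporter 9 (adjusted p = 0.0206), heme oxygenase (0.0471) and apolipoprotein A-II (0.0406), and Ssa#EG781271 was not (0.0663). This block was added for single genes after the values were seen.

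Of the 22 probes followed singly, none changed sign with scanner values or centring. Orientation and fish number are balanced over the diets. As covariates they leave these means as they are, so that no sign could change there. The median of the probes that changed in PPC + S lay between 0.010 and 0.046 (up) and -0.060 and -0.037 (down) without 1 diet. The probes above 0 in all 4 diets numbered 22 to 55 without 1 fish, those below 0 47 to 75. Chosen after seeing the data, averaging on the linear scale gave 40 probes lower and 20 higher in 2 or more diets, and the median of the fish gave 3 higher. With the dyes as stated, also chosen after seeing the data, the counts were 27 lower and 45 higher, 28 of the probes that fell in PPC + S were below 0 in all 4 diets, and both medians of the PPC + S probes changed sign (-0.046 up, 0.055 down). Of the probes tested 12498 were well above background (both channels, 12 or more arrays), and the others rest on dimmer spots.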
